A study of Homo sapiens with 50 samples.

Results

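Short hairpin RNAs against 9 transcription factor genes were followed through a pooled lifespan screen. The genes were ATF2, JUNB, JUND and CREB1 (AP-1 and CREB factors), MAF and MAFK (MAF factors), and MYC, MYCN and MYCL1 (MYC factors). All hairpins whose gene column named exactly 1 of these genes were taken, which gave 46 of the 3443 hairpins in the deposited table: 7 against MYC, 4 against CREB1 and 5 against each of the others. The cells were IMR90, a line of human lung fibroblasts with a limited number of divisions, kept at 3% oxygen and infected with lentiviral hairpin pools at a multiplicity of infection of 0.3. In all groups the cells carried hairpins from the same library of chromatin regulators, and the groups differed in population doubling (PD): 40, 45, 50, 55 and 60, with 10 samples in each, from 10 plates that were each infected with a pair of viral pools. A given hairpin was in 4 of the 10 paired pools. The integrated hairpins were amplified from genomic DNA and counted as sequence tags, so a value is the abundance of cells that carried a hairpin and not the expression of its target.

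The AP-1 factors are dimers of proteins with a basic region and a leucine zipper. JunB and JunD are Jun subunits, and ATF2 pairs with Jun proteins and is activated by stress kinases. CREB1 binds the cyclic AMP response element and, once phosphorylated, recruits the coactivators CBP and p300. MAF proteins are relatives with the same type of zipper: c-MAF, encoded by MAF, has an activation domain, whereas the small MAF protein MAFK has none and works as the partner of factors such as NF-E2. The MYC proteins bind E-boxes together with MAX and drive growth and division in many tissues. In the principle of the screen, a hairpin that lowers a gene limiting lifespan should let its cells outgrow the others, and a hairpin that slows division should be lost.

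The 5 columns held 8270745 to 11505688 tags, and each was the authors' value pooled over plates, with no replicate. No difference below therefore has a test against the spread between cultures, and a change present in many plates cannot be told apart from one in a single plate. Where 5 values stand in a row they are for PD40, 45, 50, 55 and 60 in that order, and 4 values are for the later times set against PD40. Ratios are of CPM (tags scaled to a common column total) and carry exact 95% counting intervals, which cover counting error only, because amplified tags are not independent molecules. A log2 change compares CPM, with a pseudocount of 1 added on each side, with its value at PD40. Each hairpin was also placed among all hairpins of its abundance class, 1 of 5 classes of equal size by PD40 tags. For a hairpin at 0 tags the fold is a bound, computed with 3 tags in that column. Its log2 change, and so its percentile, is then set by its starting count. Directions are relative to the column total, on which the median hairpin of the library stood at -5.86 at PD60 on the log2 scale. With TMM scaling that median was -1.84, and 14 of the 46 hairpins were over 2-fold higher (30.4%, beside 18.8% of all hairpins). The gene means of MAF, MYCL1, MYC and CREB1 were then above 0.

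As a group the 46 hairpins lay near the library. At PD45 2 of them were over 2-fold higher than at PD40, as were 5.73% of all hairpins tested, and 32 were over 2-fold lower, against 63.2% of all. At PD50 the counts were 2 higher (4.94% of all) and 39 lower (81.9% of all), and at PD55 3 higher (2.92%) and 42 lower (91.7%). At PD60 2 were higher (2.28% of all) and 42, or 91.3%, were lower (95.3% of all). The median log2 change of the 46 was -2.00, -3.94, -5.19 and -5.62, beside -1.63, -3.46, -4.93 and -5.86 over all hairpins. Hairpins at 0 tags numbered 1 of the 46 at PD45 (1.42% of the library), 1 at PD50 (9.47%), 7 at PD55 (18.4%) and 23 at PD60 (44.1%).

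From one time to the next, with hairpins of at least 10 tags at either end, losses outnumbered gains in each interval. Between PD45 and PD50 3 of 44 hairpins were over 2-fold higher, all against MAF, and 31 lower, beside 2.22% and 71.4% of all hairpins tested. Between PD50 and PD55 1 of 31 was higher, the CREB1 hairpin TRCN0000007308, and 20 lower, beside 1.70% and 80.8%. Between PD55 and PD60 2 of 24 were higher, against CREB1 and JUNB, and 14 lower, beside 5.40% and 73.2%.

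From PD45 on a few hairpins held most of the group's tags. The 5 most abundant held 42.3%, 87.0%, 97.7%, 98.7% and 98.2% of them at the 5 times. Together the 46 made up 0.957%, 2.08%, 4.60%, 3.09% and 0.660% of tags over the 5 times. One MAF hairpin, TRCN0000000258, accounted for 86.7% of the group's tags at PD50 and for 13.1% at PD40. Without it the other 45 held 0.832%, 0.576%, 0.610%, 0.521% and 0.0895% of the library at the 5 times. Over the whole course 5 of the 46 were over 2-fold higher than PD40 at 1 or more later times, against 8.59% of all hairpins: 2 against MAF and 1 each against CREB1, MYCN and MYCL1. A hairpin was most abundant at PD40 itself in 35 of the 46, and in 80.4% of the library.

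MAF (chromosome 16, 79202622 to 79600737 in GRCh38.p14) had the most abundant hairpins of the group. TRCN0000000258 had 10778, 132139, 338224, 296012 and 47188 tags. In CPM these were 1249, 15046, 39886, 25727 and 5705, with the peak at PD50. It ranked 130 of all hairpins at PD40, then 6, 3, 9 and 33. Relative to PD40 the ratio was 12.0 (11.8 to 12.3), 31.9 (31.3 to 32.5), 20.6 (20.2 to 21.0) and 4.57 (4.47 to 4.66). It was the only one of the 46 over 2-fold higher at 3 or more later times, which held for 1.93% of all hairpins. Its abundance was thus highest in the middle of the course, and its CPM at PD60 was 4.51-fold lower than at PD55.

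Another MAF hairpin was above its start at PD45, PD50 and PD55 and below it at PD60. TRCN0000000254 had 3667, 4955, 23553, 37950 and 275 tags. The ratio to PD40 was 1.33 (1.27 to 1.39) at PD45, 6.53 (6.31 to 6.77) at PD50 and 7.76 (7.50 to 8.03) at PD55, but 0.0782 (0.0689 to 0.0884) at PD60. Its rank in the library was 42 at PD55, and its CPM at PD60 was 99.2-fold lower than at PD55. Losses of abundant hairpins in this interval were common, although seldom so deep: of 101 hairpins with at least 1000 CPM at PD55, 59 were over 2-fold lower at PD60, 18 over 10-fold lower and 2 over 99-fold lower. The 99-fold cut was set just below the drop of TRCN0000000254 after it was seen, so the 2 include this hairpin.

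The other 3 MAF hairpins started low. TRCN0000000257 had 55 tags at PD40, the lowest start of the 46, and 30, 69, 22 and 10 tags afterwards, a ratio at PD50 of 1.28 with an interval (0.883 to 1.85) that includes 1. TRCN0000000255 had 580, 154, 12, 0 and 0 tags, and TRCN0000000256 had 495, 143, 8, 0 and 0 tags, at least 185-fold and 158-fold lower at PD60 than at PD40. Set against hairpins of the same abundance class, the 5 MAF hairpins fell into 2 sets. At PD50 TRCN0000000258, TRCN0000000257 and TRCN0000000254 stood at percentiles 99.9, 98.3 and 97.6 of their classes, whereas TRCN0000000255 and TRCN0000000256 stood at 48.0 and 45.6. MAF was 1 of 3 genes, of 631 with at least 3 hairpins, that had 3 or more hairpins above percentile 95 of their class at PD50, and 1 of 3 also at PD55. At PD45 it had 1 such hairpin and at PD60 it had 2, so it was not among the genes with 3 or more at those times. This count was chosen after its values were seen. At PD50 and PD55 the 3 included TRCN0000000257, from the lowest class (0 to 323 tags), where losses are bounded by the start. At PD55 this hairpin had 22 tags, a ratio of 0.300 (0.174 to 0.500), yet stood at percentile 97.7.

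For the gene as a whole the mean log2 change of MAF was -0.08 (SD over 5 hairpins 2.25), -0.34 (SD 4.45), -1.20 (SD 4.85) and -3.03 (SD 3.42). Among 631 genes this mean ranked 17, 6, 8 and 22 from the top, where the median gene stood at -1.63, -3.21, -4.61 and -5.59. At PD50 the SD over hairpins was the largest of the 631 genes, so the mean joined hairpins that had moved far apart. All MAF hairpins together held 0.181%, 1.56%, 4.27%, 2.90% and 0.574% of tags.

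MAFK (chromosome 7, 1530702 to 1543043) had no hairpin left at PD60. All 5 were at 0 tags, after 415 to 623 tags at PD40, and were at least 133-fold to 199-fold lower. All 5 lay in an abundance class in which 69.8% of all hairpins were at 0 at that time. Their percentiles of 15.0 to 60.5 in that class were set by their starting counts. A count of 0 allows the gene's hairpins a share of up to 3.63e-05% at PD60, against 0.0285% at PD40. The timing differed more than the end: TRCN0000013116 had 623, 11, 3, 1 and 0 tags, with a ratio of 0.0173 (0.00861 to 0.0312) already at PD45. TRCN0000013117 had 415, 301, 36, 3 and 0 tags, with a PD45 ratio of 0.712 (0.612 to 0.828). At PD45 these stood at percentiles 2.54 and 86.3 of the same abundance class. The means for MAFK were -2.56, -4.24, -5.46 and -5.84, the last at rank 381 of 631 genes. Its SD over hairpins was 0.27 at PD60, where all 5 values were set by their starting counts alone, and 1.81 at PD45.

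CREB1 (chromosome 2, 207529962 to 207605988) had 1 hairpin that ended high and 3 that were lost. TRCN0000007308 had 768, 182, 208, 1204 and 1767 tags. The ratio to PD40 was 0.233 (0.197 to 0.274), 0.276 (0.235 to 0.322), 1.18 (1.07 to 1.29) and 2.40 (2.20 to 2.62), a dip followed by a return above the start. In its abundance class it stood at percentiles 36.5, 77.1, 97.2 and 99.3. Of 2138 hairpins that were over 2-fold lower at both PD45 and PD50, 8 were over 2-fold higher than PD40 at PD60, and this was the only one among the 32 such hairpins of the group. The pattern was drawn from this hairpin after its values were seen, so its rarity is no separate result. TRCN0000007308 ended at rank 159 of the library, with 214 CPM at PD60.

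The other CREB1 hairpins, TRCN0000007309, TRCN0000007310 and TRCN0000011085, started at 264 to 473 tags, had 15 to 31 tags at PD45 and 1 tag each at PD55, and were at 0 at PD60 (at least 84.4-fold to 151-fold lower). The mean for CREB1 was -3.15 at PD45 (SD 0.80 over 4 hairpins), the rank of 609 among 631 genes, and -3.96, -3.87 and -3.70 (SD 3.32) afterwards. Its rank from the top was 46 at PD60, through the 1 hairpin that held all 1767 tags of the gene. Summed over hairpins CREB1 held 0.0214% of tags at PD60 and 0.0212% at PD40.

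ATF2 (chromosome 2, 175072259 to 175168203) had 2 of 5 hairpins above their start at PD45, and the other 3 over 2-fold lower. TRCN0000013714 had 5520, 6014, 2049, 132 and 29 tags, a ratio of 1.07 (1.03 to 1.11) at PD45 and of 0.00548 (0.00367 to 0.00788) at PD60. TRCN0000013717 had 2505, 3366, 573, 66 and 6 tags, with ratios of 1.32 (1.25 to 1.39) at PD45 and 0.00250 at PD60. Both were above their PD40 level at PD45 beyond counting error and far below it from PD55 on. TRCN0000013715 had 1557, 406, 31, 3 and 0 tags. TRCN0000013713 had 560, 119, 12, 5 and 0 tags, and TRCN0000013716 had 106, 42, 14, 4 and 0 tags. These 3 were thus low at PD45 already and not detected at PD60. The mean for ATF2 was -0.97 at PD45 (SD 1.17, rank 145 of 631 genes), -3.17 at PD50, -5.42 at PD55 (rank 514) and -6.37 at PD60 (SD 1.58, rank 513). ATF2 hairpins made up 0.119%, 0.113%, 0.0316%, 0.00183% and 0.000423% of all tags.

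JUNB (chromosome 19, 12791486 to 12793315) had 2 of 5 hairpins detected at PD60, both over 2-fold lower than at PD40. TRCN0000014946 had 4182, 4996, 6585, 1550 and 107 tags. Its ratio was 1.60 (1.54 to 1.67) at PD50, and 0.0267 (0.0218 to 0.0323) at PD60, at percentile 62.2 of its class. TRCN0000014943, TRCN0000014944 and TRCN0000014945, with 272 to 1454 tags at PD40, had 3 to 8 tags at PD50 and 0 from PD55 on. TRCN0000014947 had 128, 20, 8, 2 and 18 tags. Its 18 tags at PD60, against 2 at PD55, are a ratio of 12.5 with an interval of 3.00 to 111, and it was still 6.82-fold (4.15 to 11.9) lower than at PD40, at percentile 94.8 of its class. The mean for JUNB was -2.09, -3.52, -4.62 and -4.99.

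JUND (chromosome 19, 18279694 to 18281622) had no hairpin above its PD40 level at any later time. TRCN0000014975 had 255, 158, 38, 27 and 5 tags and was 48.9-fold lower at PD60 (20.7 to 152). TRCN0000014973 had 1310, 137, 9, 3 and 0 tags and was at least 419-fold lower. Its percentile of 5.44 at PD60 reflects a start near the top of its class (730 to 1408 tags), where 45.7% of all hairpins were at 0. Of the remaining 3, TRCN0000014977 had 3 tags at PD60 against 1486 at PD40, and TRCN0000014976 and TRCN0000014974 ended at 0 from 631 and 228 tags. The mean for JUND was -2.38, -4.18, -5.31 and -5.90. Its hairpins together had 8 tags at PD60 and 3910 at PD40, and the combined share was 469-fold lower.

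MYC (chromosome 8), the broadly expressed member of its family, had 7 hairpins, and all 7 were still detected at PD60, with 6 to 603 tags, although all were over 2-fold lower than at PD40. They had started high, at 1407 to 7577 tags, where the median hairpin of the library had 1019 tags. TRCN0000039638 had 5223, 8783, 4526, 2871 and 603 tags. Its ratio was 1.65 (1.60 to 1.71) at PD45 and 0.120 (0.110 to 0.131) at PD60. TRCN0000039640 had 7577, 6707, 3209, 1610 and 267 tags, a stepwise loss to 0.0368 (0.0324 to 0.0415) of its PD40 level.

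The 7 MYC hairpins separated at PD45. TRCN0000039638, TRCN0000039641 and TRCN0000039640 had PD45 log2 changes of 0.72, 0.07 and -0.20, and TRCN0000039639 of -1.48. TRCN0000010390, TRCN0000010391 and TRCN0000039642 stood at -2.96, -3.09 and -3.10. The lowest at PD60 was TRCN0000010391, with 5839, 690, 162, 49 and 6 tags, 933-fold lower than at PD40 (428 to 2544). These 3 stayed below the other 4 at each later time, and at PD60 the lowest of the 4, TRCN0000039641, stood at -5.44 and the highest of the 3, TRCN0000010390, at -6.55. The division was drawn after the values were seen. The mean for MYC was -1.43 (SD 1.65), -2.82, -4.11 and -5.71 (SD 1.76, rank 344 of 631 genes). Summed over its 7 hairpins, MYC had 0.0122% of tags at PD60, against 0.321% at PD40.

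MYCN (chromosome 2, 15940550 to 15947004), best known from the nervous system and neuroblastoma, had 1 hairpin with an early gain in abundance. TRCN0000020696 had 505, 1253, 471, 212 and 122 tags. The ratio was 2.44 (2.20 to 2.71) at PD45, 0.949 (0.835 to 1.08) at PD50 and 0.252 (0.205 to 0.308) at PD60. It stood between percentiles 96.1 and 98.8 of its class at all 4 later times. TRCN0000020695 had 1554, 240, 9, 13 and 1 tags and was 1490-fold lower at PD60, with a wide interval from 267 to 58886 because of the single tag. The other 3 had 85 to 613 tags at PD40, 0 to 13 at PD45 and 0 at PD60. The mean for MYCN was -2.49, -3.89, -4.31 and -4.58.

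MYCL1 (now MYCL; chromosome 1, 39895428 to 39901917), which encodes L-MYC, first found amplified in small cell lung cancer, had 4 of 5 hairpins detected at PD60, 2 of them within 2-fold of PD40. TRCN0000020581 had 4670, 5272, 7963, 12797 and 3544 tags. The ratio was 1.11 (1.07 to 1.15), 1.73 (1.67 to 1.80), 2.05 (1.99 to 2.12) and 0.792 (0.757 to 0.827). It passed 2-fold only at PD55, where the interval of its ratio includes 2. Its log2 change at PD60 was -0.34, and 6.49 with TMM scaling. TRCN0000020582 had 936, 541, 345, 401 and 489 tags and was 1.84-fold lower at PD60 (1.64 to 2.05), at percentile 97.5 of its class. Its CPM at PD60 was 1.70-fold that at PD55 (1.48 to 1.94). These were the only 2 of the 46 within 2-fold of PD40 at PD60, as were 2.43% of all hairpins tested.

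The other 3 MYCL1 hairpins behaved differently. TRCN0000020579 had 2791, 282, 39, 28 and 20 tags. TRCN0000020580 had 1470, 161, 28, 11 and 0 tags and was at least 470-fold lower, and TRCN0000020583 had 2 tags at PD60 against 1805 at PD40. The mean for MYCL1 was -1.70, -3.17, -3.94 and -4.52 (SD 3.60), with 0.0490% of tags at PD60 against 0.135% at PD40.

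At PD60 the order of the gene means from the top was MAF (-3.03), CREB1 (-3.70), MYCL1 (-4.52), MYCN (-4.58), JUNB (-4.99), MYC (-5.71), MAFK (-5.84), JUND (-5.90) and ATF2 (-6.37). Neighbours in this order differed by less than the SD over hairpins of either gene. The SD over hairpins was 3.42, 3.32, 3.60, 2.17, 1.80, 1.76, 0.27, 1.33 and 1.58 log2 units for the genes in the same order. The order depended on the scaling: with TMM it began with MAF (1.89), MYCL1 (1.05), MYC (0.66) and CREB1 (0.15) and ended with ATF2 (-2.21) and MAFK (-2.87). With a pseudocount of 10 CPM it began with CREB1 (-1.45) and ended with MYC (-4.33). Of the 9 means 5 lay above the median gene and 4 below at PD60, and 3 above and 6 below at PD45. No gene among the 9 had more than 1 hairpin over 2-fold higher at PD60.

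Starting abundance bounded what could be seen. In the lowest class of PD40 tags 7 of 10 hairpins of the group were at 0 at PD60, against 84.5% of all hairpins of that class, and in the next class 12 of 13 were, against 69.8%. Of the 9 in the highest class, from 3052 tags, 0 were at 0, and 1, the MAF hairpin TRCN0000000258, was over 2-fold higher, against 6.24% of all hairpins of that class. The 17 MYC family hairpins had a median of 1805 tags at PD40, the 19 AP-1 and CREB hairpins 560 and the 10 MAF family hairpins 529. At PD60 4 of the 17, 12 of the 19 and 7 of the 10 were at 0, so these counts cannot be compared apart from the starting counts. Within their classes, 24 of the 46 stood above percentile 50 at PD60, with a median percentile of 53.9. The percentiles of the 23 at 0 tags were set by their starting counts.

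For each of the 9 genes the gene with the nearest course of means over the 4 later times was found among 622 others, by the root mean square difference in log2 change. For MAF it was MYST1, the older name of the histone H4 acetyltransferase KAT8, at 0.16, where the median gene lay at 2.74. For CREB1 it was the p53 inhibitor MDM4 at 0.15, against a median of 1.57. The nearest were HIST1H3F for ATF2 (0.11), TAF15 for JUNB (0.11), SMARCA4 for both JUND (0.14) and MAFK (0.076), JARID1B for MYC (0.091), DDX1 for MYCN (0.14) and RAD21 for MYCL1 (0.059). With 4 times that share the same columns, and a median course that most genes are near, such likeness is a description of means over few hairpins.

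Partners of the 9 factors were taken as lists by known role. Of 15 names of CREB and AP-1 coactivators, kinases and subunits, 5 had hairpins under that exact name (CREBBP, EP300, FOS, JUN and ATF7IP). At PD60 2 of their 29 hairpins were over 2-fold higher (2.28% of all hairpins) and 26 lower (95.3% of all). Their median was -5.74, beside -5.86 over all hairpins. JUN, the founding Jun subunit, had 1 hairpin above its start: TRCN0000010366 had 11368, 4847, 1713, 1048 and 20508 tags, a PD60 ratio of 1.88 (1.84 to 1.93), so that all of the excess lay in the last column. The other 5 JUN hairpins and all 5 FOS hairpins had 0 to 12 tags at PD60. Both hairpins over 2-fold higher were against EP300, which encodes p300 (TRCN0000009884 at a ratio of 3.41 and TRCN0000009882 at 3.24).

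Of 17 names of MYC partners and cofactors, 7 had hairpins (RUVBL1, ACTL6A, KAT5, KAT2A, EP400, WDR5 and SMARCB1). Of their 37 hairpins 1 was over 2-fold higher at PD60 (2.28% of all hairpins) and 34 lower (95.3% of all), with a median of -4.60 (-5.86 over all). That 1 was ACTL6A TRCN0000072275, against an actin-related subunit of SWI/SNF and TIP60 complexes, with 4525, 4751, 7409, 20739 and 31537 tags and a ratio of 7.27 (7.05 to 7.50). Of ACTL6A hairpins 2 more stood above their PD40 level, TRCN0000072273 at a ratio of 1.45 (1.27 to 1.66) and TRCN0000072277 at 1.26 (1.20 to 1.33). Of 7 names of MAF partners 1 had hairpins, NFE2, the large subunit of NF-E2. All 5 were over 2-fold lower at PD60 (median -5.67), as were 95.3% of all hairpins, with 145 tags at most at that time. At PD45 1 of the 5 was over 2-fold higher than PD40 (5.73% of all hairpins), TRCN0000014589, with 9669 tags and a log2 change of 2.58. Lamin B1, LMNB1, taken here as a control target, had 1 of 5 hairpins over 2-fold higher at PD60 (2.28% of all hairpins). This hairpin, TRCN0000029272, had 154785 tags and a log2 change of 4.37, where the highest of the 46 stood at 2.19. The non-targeting hairpin had a log2 change of -6.53 at PD60.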

How the data were processed

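The 50 samples fell into 5 groups by population doubling, 10 each, from 10 plates infected with 10 paired viral pools. Per the file headers, the authors gave counts of tags per hairpin in a column for each group. The submitters' processing notes list Bowtie 1.0.1. Its settings and the way plates were pooled were not stated in the sources. Hairpin sequences were not used here. Names were matched exactly after removal of trailing spaces; 8 of the 9 are current symbols and 1 an older name in RefSeq's table of GRCh38.p14.

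From these counts, CPM used column totals. Log2 changes used a pseudocount of 1 CPM and hairpins with at least 10 tags in either column, which all 46 passed. Ratio intervals are exact conditional binomial intervals (95%), and a count of 0 was given a floor of 3 tags. Percentiles were taken within 5 classes of PD40 abundance. No significance test was run, since there was 1 pooled column per time. The calculation was tested on simulated columns with counting error only, in which a small part of the hairpins changed. That test covered neither losses as wide as those here nor the choice of scaling. Alternatives covered scaling (TMM of edgeR 4.0.16, size factors of DESeq2 1.42.0, in R 4.3.3), pseudocounts, count minimums and end points. Python 3.11.15, numpy 2.4.6, pandas 2.3.3 and scipy 1.17.1 were used.

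The members and lists were chosen with earlier results of these data known. Described in full were hairpins over 2-fold higher at any later time, the 5 with most tags at PD40, and the highest and lowest hairpin of each gene at PD60, with up to 3 partner hairpins per list and 1 nearest gene per member gene. The remaining hairpins are given more briefly.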

Additional observations from a re-analysis of the deposited data

How the results depend on the processing

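No paired analysis was possible because the table gives a single value per population doubling for all plates. Scaling decided the balance of directions. With TMM scaling the median log2 change over all hairpins at PD60 moved by 4.02 to -1.84, and with DESeq2's size factors by 3.95 to -1.91. The 46 hairpins then had a median of -1.91 and -2.00, with 14 over 2-fold higher and 28 lower under each, or 30.4% higher beside 18.8% and 19.3% of all hairpins. Without the 50 most abundant hairpins in the total, 4 of the 46 were higher (8.70%, against 5.76% of all), and with a pseudocount of 10 CPM the median was -2.91. Counts and medians otherwise stayed within 1.5 times the reported count, or within 1 SD over the hairpins, under the other settings run.

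Changes that turned positive under TMM scaling and DESeq2's size factors, in that order, were the means of MAF (1.89 and 1.87), MYCL1 (1.05 and 1.04), MYC (0.66 and 0.71) and CREB1 (0.15 and 0.015). Single hairpins were followed only for the 21 described in full. Of these, the hairpins that turned positive were MYCN TRCN0000020696 (4.66 and 4.75), MYC TRCN0000039638 (3.77 and 3.84), JUNB TRCN0000014947 (3.45 and 3.59), MAF TRCN0000000254 (3.14 and 3.21), MYC TRCN0000039640 (2.07 and 2.13), JUND TRCN0000014975 (1.03 and 1.11) and MYCL1 TRCN0000020581 (6.49 and 6.55, from -0.34). The 14 of the 46 over 2-fold higher under each scaling include others that are not listed here. These values include the scaling shift, which was larger for hairpins with many tags than for the median hairpin. The TMM factor was 8.94 at PD40 and 0.0777 at PD60. Under it MAF TRCN0000000258 moved from 2.19 to 9.03 and CREB1 TRCN0000007308 from 1.25 to 7.97. MYCN TRCN0000020696 was also at 0.69 without the 50 most abundant hairpins in the total, and MYCL1 TRCN0000020581 at 2.34. MAF TRCN0000000254 was at 2.95 with PD55 as end point and at 1.75 with the mean of the last 2 against the mean of the first 2 times, where MYCL1 TRCN0000020581 was at 1.04 and 0.43. From summed tags in place of the mean over hairpins, MAF was at 1.67 and CREB1 at 0.0078. Of 288 comparisons for single genes and hairpins, 133 moved by less than the spread over hairpins or the counting interval, 125 moved by more with the same sign, 25 that were past 2-fold changed sign, and 5 that were within 2-fold did, all of MYCL1 TRCN0000020581. The 133 include 21 hairpins and 9 means with no count minimum, and as many with at least 100 tags at PD40. All 21 hairpins passed both minimums, so their values could not change there. No hairpin or mean under TMM scaling or DESeq2's size factors was among the 133. Depth limited hairpins that started low: from 85 tags, 0 tags at PD60 gave a bound of only 27.2-fold.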

Other observations

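Hairpins that name several genes were outside the rule. Among them were 4 against the small MAF gene MAFG, listed together with LOC644132. TRCN0000015189 had 974, 442, 662, 1041 and 2273 tags at the 5 times, a PD60 ratio of 2.43 (2.26 to 2.63), at percentile 99.5 of its abundance class. The other 3 had 0 to 2 tags at PD60, against 347 to 1302 at PD40. TRCN0000015188 was at 954 tags at PD45, from 493 at PD40, before its loss.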
